A study of Mus musculus with 30 samples.

Results

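The comparison set 5 libraries from mice given angiotensin II with ethoxysanguinarine (AngII+ETH) against 5 libraries from mice given saline (Control), 10 of the 30 libraries of the series. The members were the libraries that carry these 2 group labels. The measured quantity was gene expression, as FPKM, a level corrected for transcript length and for library size, summed over the annotated transcripts that the deposited files list for both groups. Every animal was a C57BL/6 mouse with the genotype label WT, and the tissue was the abdominal aorta. AngII+ETH mice received angiotensin II at 500 ng/kg/min together with ethoxysanguinarine at 5 mg/kg/day for 28 days, AngII mice received the same dose of the peptide with saline in place of the compound, and Control mice received saline only. The 5 AngII libraries entered the same model and are set beside the comparison. Other groups of the series, with 3 further compounds, entered one alternative fit. No age, sex, batch or pooling of animals is given in the labels, and nothing there says whether the 5 libraries of a group came from separate animals. The p-values therefore measure the spread between these samples, which may in part be technical.

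Angiotensin II is the peptide hormone of the renin-angiotensin system. Through its type 1 receptor on smooth muscle it constricts arteries, and over weeks of infusion it is known to thicken the wall and to raise the synthesis of collagen, fibronectin and other matrix proteins. Ethoxysanguinarine is a benzophenanthridine alkaloid derived from sanguinarine, and in cultured cancer cells it is known to lower CIP2A, an inhibitor of protein phosphatase 2A. The question of the comparison is which genes differed from saline while both the peptide and the compound were given. The abdominal aorta as dissected holds smooth muscle, endothelium and adventitia, and the fat, nerves and muscle around it can come along.

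In the files of the 10 libraries low values came in steps worth 1 read each, which gave a depth of 74.9 to 80 M (megareads) per library. The annotated transcripts took 86.4% to 90.0% of the FPKM. Markers of smooth muscle were abundant in every library, with Acta2, the smooth muscle actin, at 3187 to 5705 FPKM in AngII+ETH and 3083 to 5585 FPKM in Control, and Myh11, the smooth muscle myosin heavy chain, at 383 to 775 FPKM and 414 to 603 FPKM in the same order of groups. Brown fat was present in every library too, since Ucp1, the uncoupling protein of brown adipocytes, lay at 475 to 2584 FPKM in AngII+ETH and 526 to 2369 FPKM in Control. Libraries differed in what came with the vessel. The skeletal muscle actin Acta1 reached 633 FPKM in AngII+ETH and 2240 FPKM in Control, and the mean log2 level of the skeletal muscle list was at least 5.65 in AngII+ETH 1, Control 1 and Control 2 and at most 2.93 in the other 7 libraries. AngII+ETH 4 stood apart from the other libraries of its group in mitochondrial and matrix genes, and list medians and log2 fold changes that moved by over 1.5 times or turned sign when it was left out are given with and without it. Each library is named here by its group and a number that follows the order of deposition and pairs nothing.

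Promoters of 4 genes on which the results below turn are shown first. Igfbp2 came first of all genes by p, and Igfbp7 next among the insulin-like growth factor binding proteins. Col4a1 and Col4a2 encode the chains of the most common collagen IV and lie head to head, so that their promoter windows share 78 bases on opposite strands. The sequences are 300-base windows around the transcription start from RefSeq on GRCm38.p6, written 5′ to 3′ on the strand of the gene, and for Igfbp2 the one of 2 windows nearest to the annotated start is shown. Capitals mark GC boxes, with the letters GGGCGG. They also mark CCAAT boxes. Both motifs were searched on both strands, so their reverse complements are in capitals too.
Igfbp2 chr1:72824230-72824529 (plus strand): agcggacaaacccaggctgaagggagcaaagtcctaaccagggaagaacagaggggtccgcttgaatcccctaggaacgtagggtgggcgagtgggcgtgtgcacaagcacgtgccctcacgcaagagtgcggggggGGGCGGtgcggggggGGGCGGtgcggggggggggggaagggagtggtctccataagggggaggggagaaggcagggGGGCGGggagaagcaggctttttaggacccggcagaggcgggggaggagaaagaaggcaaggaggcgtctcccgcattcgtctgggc
Igfbp7 chr5:77407996-77408295 (minus strand): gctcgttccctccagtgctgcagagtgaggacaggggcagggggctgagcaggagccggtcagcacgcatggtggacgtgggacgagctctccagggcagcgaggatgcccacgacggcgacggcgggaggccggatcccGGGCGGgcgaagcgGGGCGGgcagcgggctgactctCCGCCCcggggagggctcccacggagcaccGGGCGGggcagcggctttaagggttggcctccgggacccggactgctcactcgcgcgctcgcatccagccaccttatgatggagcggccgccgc
Col4a1 chr8:11312777-11313076 (minus strand): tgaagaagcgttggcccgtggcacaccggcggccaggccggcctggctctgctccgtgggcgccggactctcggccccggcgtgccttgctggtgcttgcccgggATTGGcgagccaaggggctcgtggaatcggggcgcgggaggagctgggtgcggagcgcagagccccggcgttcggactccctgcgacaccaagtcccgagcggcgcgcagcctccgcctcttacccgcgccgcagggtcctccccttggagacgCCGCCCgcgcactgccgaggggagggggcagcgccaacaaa
Col4a2 chr8:11312555-11312854 (plus strand): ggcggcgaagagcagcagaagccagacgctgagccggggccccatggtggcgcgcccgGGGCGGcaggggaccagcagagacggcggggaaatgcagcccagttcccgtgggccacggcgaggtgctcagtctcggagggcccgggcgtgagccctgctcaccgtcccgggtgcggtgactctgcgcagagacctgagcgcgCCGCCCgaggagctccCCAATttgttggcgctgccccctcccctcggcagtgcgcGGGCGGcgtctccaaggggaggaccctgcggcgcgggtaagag
The window of Igfbp2 held 3 GC boxes and no CCAAT box, that of Igfbp7 held 4 and none, that of Col4a1 held 1 GC box and 1 CCAAT box, and that of Col4a2 held 3 GC boxes and 1 CCAAT box. Of the 32851 windows in the same RefSeq table, 35.7% held a GC box and 37.4% a CCAAT box on either strand. These matches are descriptions of the letters in the windows and not of factor binding.

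Of 12589 genes tested, 0 passed the limma test of AngII+ETH against Control at a Benjamini-Hochberg adjusted p of 0.05 (percent called 0%). Igfbp2 came nearest, with an adjusted p of 0.0502. Before adjustment, 950 genes had p under 0.05, of which 570 (4.53% of genes tested) were higher and 380 (3.02%) lower in AngII+ETH. The ranges of the 2 groups did not overlap for 168 genes (1.33%) with every AngII+ETH library above every Control library, and for 89 genes (0.707%) with every one below. The median log2 fold change over all genes was 0.016. On the mean, 6659 of the 12589 genes were higher and 5930 lower in AngII+ETH, the background for counts of list members on the mean. AngII against Control likewise gave 0 calls (0%), with 1917 genes (15.2%) at an unadjusted p under 0.05, of which 1520 were higher and 397 lower in AngII, and a median of 0.10. AngII+ETH against AngII gave 0 calls (0%) with 589 genes (4.68%) at p under 0.05. These comparisons share their AngII+ETH, AngII and Control libraries, so their values stand side by side and are not independent. Fold changes below are log2 differences of FPKM + 1 (AngII+ETH minus Control unless said otherwise) with the standard error of the limma fit, tests are two-sided, and counts at p under 0.05 are unadjusted. No gene named here passed the adjusted threshold in the fit of the 15 libraries. The scale understates changes of genes at a few FPKM. Counts of list members below stand beside the shares over all genes tested, 4.53% higher and 3.02% lower at p under 0.05. For ranges apart these shares were 1.33% higher and 0.707% lower. Without AngII+ETH 4, 386 genes were higher and 448 lower at p under 0.05, of 12462 tested.

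**Figure D1:**
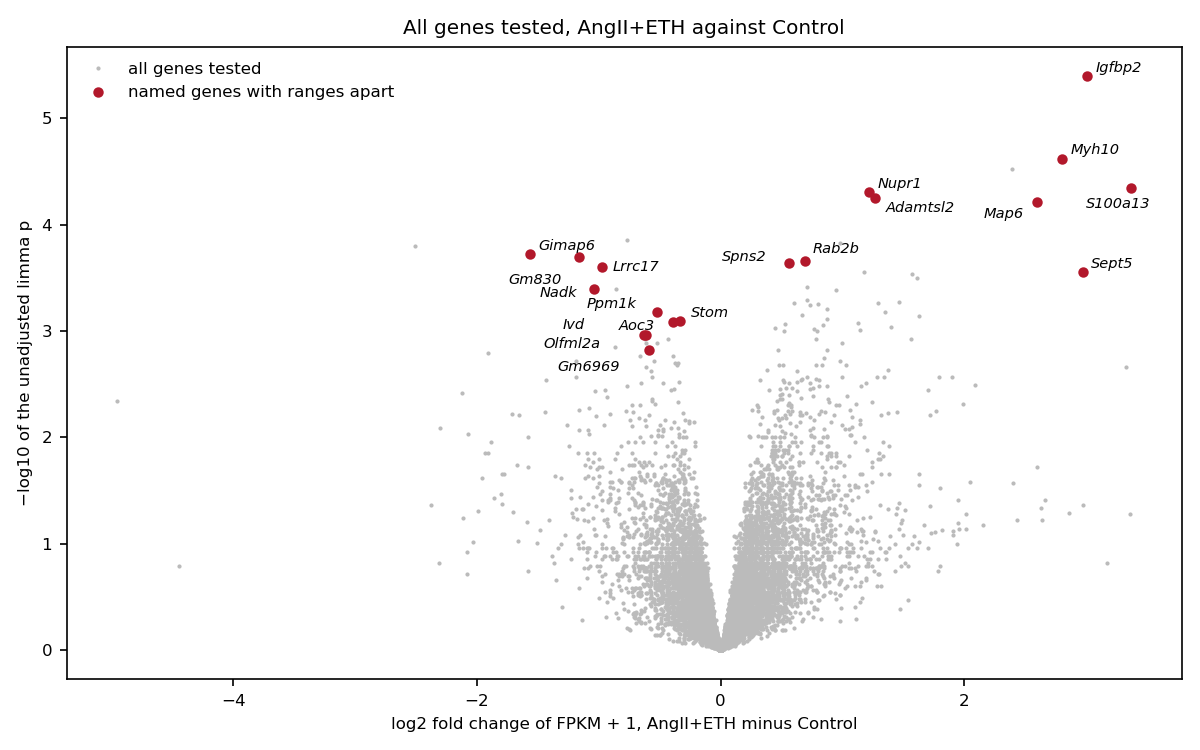
Each point is 1 of the 12589 genes tested; the x axis is the log2 fold change of FPKM + 1 (AngII+ETH minus Control) and the y axis is −log10 of the unadjusted limma p. Red points are named genes from the smallest p in each direction among those whose group ranges do not overlap and whose higher group averages at least 5 FPKM, and Igfbp2 lies highest; S100a13 is at 0 in every Control library, so its position on the x axis depends on the added 1.

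Igfbp2, a secreted protein that binds insulin-like growth factors and modulates their access to the receptor, had the smallest p of all genes (ENSMUSG00000039323, chr1:72824503-72852474, plus strand, GENCODE M21). Its level was 79.6, 70.3, 64.5, 132 and 71.1 FPKM in AngII+ETH and 12.6, 5.67, 11.9, 6.25 and 11.6 FPKM in Control, so that the lowest AngII+ETH library was more than 5 times the highest Control library. AngII libraries had 39.6, 98.6, 148, 23.6 and 48.7 FPKM. The log2 fold change was 3.01 ± 0.41 (adjusted p = 0.0502) for AngII+ETH minus Control, 2.55 for AngII minus Control and 0.46 for AngII+ETH minus AngII. AngII+ETH 4 had the highest value of its group, and without it the log2 fold change was 2.83. Nearly all of the FPKM came from 1 transcript, which averaged 83.0 FPKM in AngII+ETH and 9.23 FPKM in Control. The adjusted p was under 0.05 in 12 of the 30 alternative fits that gave it a value, with a range of 0.0026 to 0.74, and the largest came without AngII+ETH 4 and the 3 muscle-rich libraries, where the log2 fold change was 2.72. Igfbp7, a related secreted binding protein abundant in vessel walls, had 1509.6, 1248, 1238, 2211 and 1499.7 FPKM in AngII+ETH and 751, 648, 955, 661 and 930.1 FPKM in Control (log2 fold change 0.95 ± 0.21), again with no overlap, and 1401, 1724, 2278, 1129 and 1440.0 FPKM in AngII. Of the insulin-like growth factor list, 2 of 15 tested members had p under 0.05 and were higher (these 2 binding proteins) and 1 was lower, and the median of the list was 0.27, or 0.09 without AngII+ETH 4. The lower one was Igfbp5, named after its values were seen, with 78.5 to 142 FPKM in AngII+ETH, against 126 to 155 FPKM in Control (log2 fold change -0.46 ± 0.19).

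Nupr1 and Adamtsl2 were likewise higher in every AngII+ETH library than in any Control library. Nupr1, a small nuclear protein induced by cellular stress, had 155, 90.4, 154, 146 and 113 FPKM in AngII+ETH and 68.7, 56, 43, 49.3 and 59.5 FPKM in Control (log2 fold change 1.22 ± 0.21). AngII libraries had 88.4, 105, 196, 109.8 and 138 FPKM. Adamtsl2, a secreted glycoprotein that binds fibrillin microfibrils, had 6.2, 8.03, 5.42, 6.06 and 7.31 FPKM in AngII+ETH and 2.51, 2.02, 1.51, 1.57 and 3.44 FPKM in Control (log2 fold change 1.27 ± 0.22). AngII libraries had 3.95, 7.02, 5.86, 5.84 and 11.6 FPKM. For both genes, as for Igfbp2, the AngII range overlapped that of AngII+ETH. Smaller differences with tight groups were seen for Spns2, the exporter of sphingosine 1-phosphate, at 7.82, 9.11, 8.2, 9.46 and 8.83 FPKM in AngII+ETH and 5.45, 5.24, 4.93, 5.72 and 6.67 FPKM in Control (log2 fold change 0.56 ± 0.11). Rab2b, a small GTPase of membrane traffic, had 6.93 to 8.78 FPKM in AngII+ETH, against 3.77 to 6.69 FPKM in Control (log2 fold change 0.69 ± 0.14), and 16.9% of its Control FPKM lay in transcripts not listed for AngII+ETH. When such transcripts were counted at 0 in the group that does not list them, its log2 fold change was 0.46.

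The 10 genes with the smallest p among those lower in AngII+ETH, with ranges apart and a Control mean of at least 5 FPKM, had log2 fold changes between -1.56 and -0.33. Gimap6, a GTPase of the family expressed in lymphocytes and endothelium, had 2.77, 8.93, 2.92, 2.94 and 5.07 FPKM in AngII+ETH and 16.5, 11.9, 11.8, 15 and 15.8 FPKM in Control (log2 fold change -1.56 ± 0.31, adjusted p = 0.2), and 10.9, 13, 12.3, 12.5 and 3.91 FPKM in AngII. Lrrc17, a secreted leucine-rich repeat protein, had 6.15, 5.82, 5.86, 11.7 and 8.14 FPKM in AngII+ETH and 16.1, 15.9, 14.1, 12.5 and 17.7 FPKM in Control (log2 fold change -0.97 ± 0.20). AngII libraries had 14.3, 14.3, 10.4, 8.43 and 16.9 FPKM. Nadk, the kinase that makes NADP from NAD, had 16.1, 22.7, 30.1, 28.8 and 29 FPKM in AngII+ETH and 39.4, 51.9, 45.3, 72 and 56.3 FPKM in Control (log2 fold change -1.04 ± 0.23). AngII libraries had 27.8, 29, 47.9, 56.4 and 41.1 FPKM. In each of these 3 genes at least 3 of 5 AngII libraries lay above every AngII+ETH library, and the AngII+ETH minus AngII differences were -1.08, -0.71 and -0.63, with adjusted p of 0.86, 0.86 and 0.86. Ppm1k, the mitochondrial phosphatase that activates branched-chain ketoacid breakdown, had 3.81 to 4.6 FPKM in AngII+ETH, against 5.56 to 6.91 FPKM in Control (log2 fold change -0.52 ± 0.12). Ivd, the dehydrogenase of the leucine pathway, had 15.8 to 22.7 FPKM in AngII+ETH, against 22.9 to 34.6 FPKM in Control (log2 fold change -0.61 ± 0.15). Stom, the membrane protein stomatin, had 53.1, 47.3, 51.2, 49.5 and 57.3 FPKM in AngII+ETH, 51.1, 54.6, 45.3, 52.8 and 54.1 FPKM in AngII and 62.3, 61.9, 67.2, 69.4 and 65.5 FPKM in Control (log2 fold change -0.33 ± 0.08). The AngII range of Stom lay below the Control range as well. Aoc3, the amine oxidase also called vascular adhesion protein 1, had 79 to 102 FPKM in AngII+ETH, against 102 to 126 FPKM in Control, ranges that meet without overlapping (log2 fold change -0.39 ± 0.09). Olfml2a, an olfactomedin-like secreted protein, had 3.26 to 3.89 FPKM in AngII+ETH, against 5.57 to 7.94 FPKM in Control (log2 fold change -0.63 ± 0.16), and the predicted genes Gm830 and Gm6969 had log2 fold changes of -1.16 ± 0.23 and -0.59 ± 0.15.

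**Figure D2:**
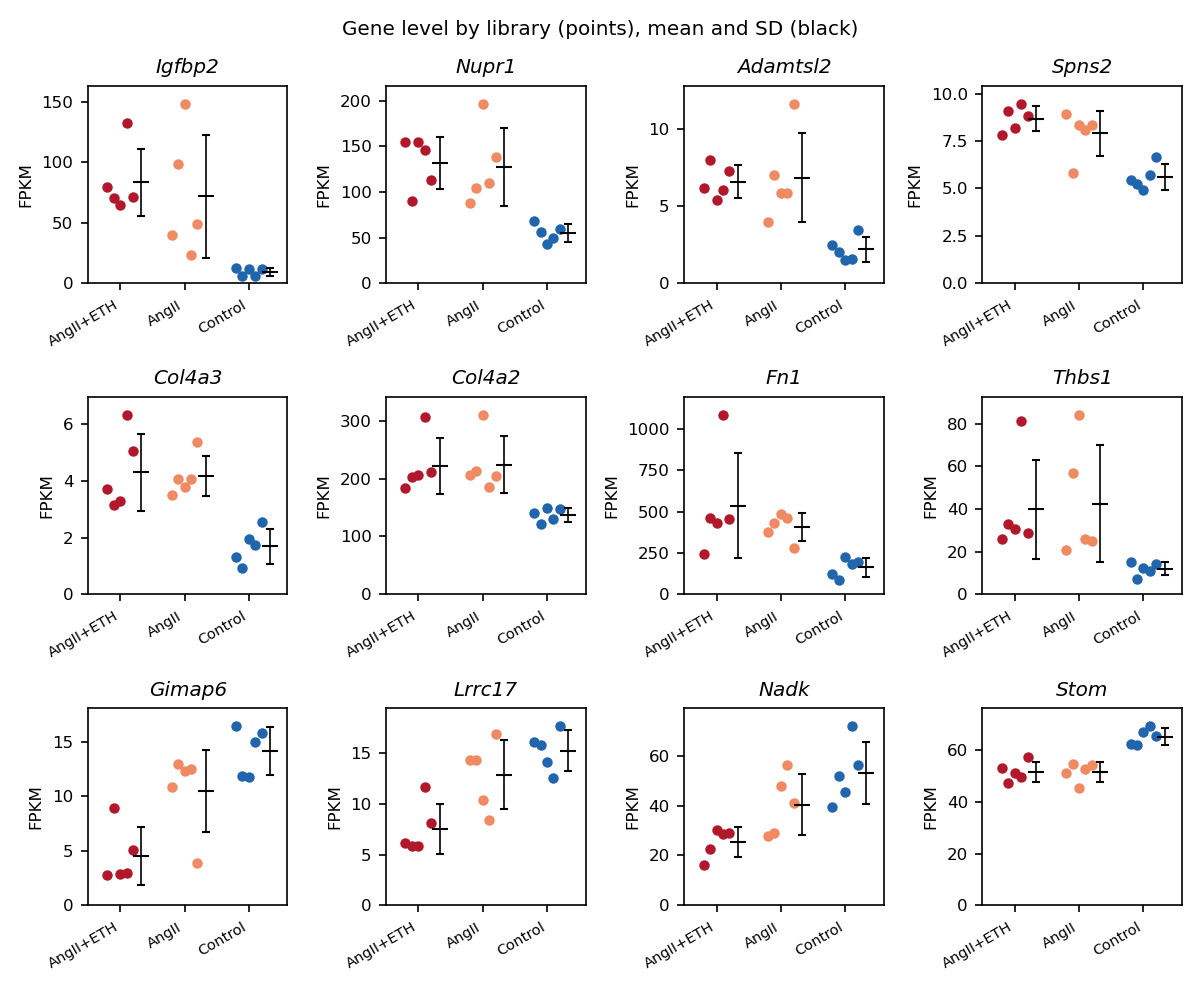
FPKM of 12 genes (y axes) in the 5 libraries of AngII+ETH, AngII and Control (points, left to right within a group by library number), with the mean and SD in black. In the upper 8 panels every AngII+ETH library lies above every Control library, and in Gimap6, Lrrc17, Nadk and Stom every one lies below.

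Several of the top genes had libraries at separate levels rather than a graded spread, and why they did was not tested. In Map6, a transcript listed for Control and AngII but not for AngII+ETH bears on the gene sum. S100a13, Sept5 and Sparc had 0% of the FPKM of their annotated transcripts in those listed for only AngII+ETH or only Control. Transcripts outside the annotation were not examined for these genes. Myh10, the non-muscle myosin IIB heavy chain, had 42.2, 40, 22.5, 6.27 and 37.8 FPKM in AngII+ETH, 9.18, 4.43, 3, 4.08 and 3.15 FPKM in AngII and 3.59, 1.23, 4.95, 1.8 and 3.2 FPKM in Control (log2 fold change 2.8 ± 0.45). The AngII+ETH minus AngII difference was 2.26 (adjusted p = 0.86), and AngII+ETH 4 was the low library of its group. S100a13, a small calcium-binding protein, had 7.46, 14.6, 4.78, 3.11 and 36.7 FPKM in AngII+ETH, 0, 4.13, 3.67, 0 and 1.75 FPKM in AngII, and was listed at 0 in all 5 Control libraries, from 1 transcript. Sept5, a septin of the cytoskeleton, had 20.8, 16.2, 14, 25.9 and 16.9 FPKM in AngII+ETH, 20.3, 19.4, 12.2, 13.5 and 18.7 FPKM in AngII and 0, 0, 9.42, 7.63 and 0 FPKM in Control, so that 3 of 5 Control libraries were listed at 0. Sparc, a collagen-binding matricellular protein, had 1425, 1152, 1543, 2109 and 1558 FPKM in AngII+ETH, 57.4, 72.3, 191, 80.5 and 1791 FPKM in AngII and 520.3, 553, 66.8, 61.3 and 65.1 FPKM in Control (log2 fold change 3.33 ± 0.89). The 5 AngII+ETH libraries lay above every Control library, while AngII held 4 libraries at or under 191 FPKM and 1 at the level of AngII+ETH. Prelp, a proteoglycan of the matrix, had 0.413, 0.00356, 0.00354, 5.74 and 0.00356 FPKM in AngII+ETH, 138, 0.00352, 149.5, 116 and 110.1 FPKM in AngII and 105, 124, 0.574, 102 and 123 FPKM in Control (log2 fold change -4.95 ± 1.46), so that single libraries of Control and of AngII lay at the level of AngII+ETH. A transcript that the files list for AngII+ETH alone held 34.1% of the Prelp FPKM of that group. Map6, which stabilises microtubules, had 14.5, 17.5, 12.2, 19.6 and 14.4 FPKM in AngII+ETH, 26.8, 16.7, 17.4, 10.1 and 20.7 FPKM in AngII and 1.33, 11.3, 0.482, 1.01 and 0.68 FPKM in Control (log2 fold change 2.6 ± 0.46). A further Map6 transcript, listed for Control and AngII but not for AngII+ETH, had 18.8, 0.0443, 23.8, 15.5 and 23.1 FPKM in Control, 84.6% of the Control FPKM of the gene. With that transcript counted, at 0 in AngII+ETH, the log2 fold change of Map6 was -0.25. The higher level in AngII+ETH thus held for the shared transcripts and not for the summed gene. In AngII that transcript had 0.00558 to 0.655 FPKM.

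**Figure D3:**
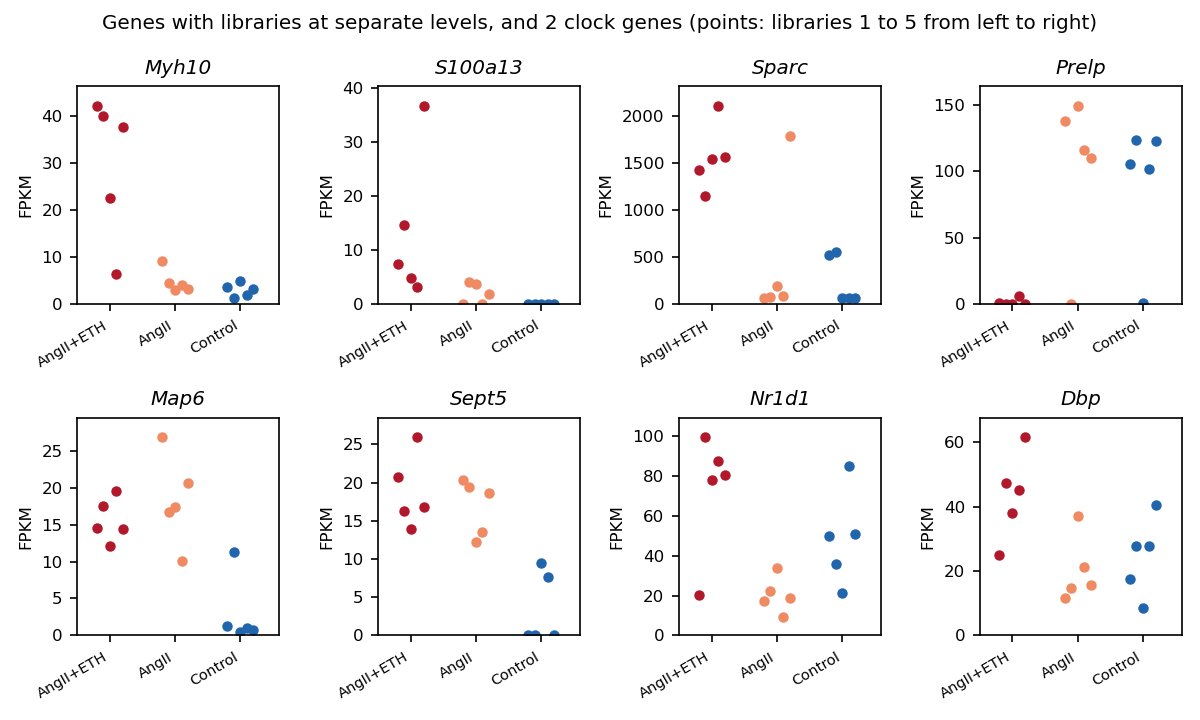
FPKM of 8 genes (y axes) in each library (points) of AngII+ETH, AngII and Control. Sparc is higher in all 5 AngII+ETH libraries than in any Control library, Prelp lies at or under 5.74 FPKM in all 5 of them, and S100a13 is at 0 in all 5 Control libraries.

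The 6 lists of extracellular matrix genes had medians of 0.31 to 0.67 for AngII+ETH (0.13 to 0.52 without AngII+ETH 4) and 0.34 to 0.75 for AngII, and more of their members were higher than lower than in Control. Among matricellular proteins and fibronectin, which link cells to the matrix, 16 of 21 tested members had a higher mean log2 level in AngII+ETH, 13 had p under 0.05 and were higher and 0 had p under 0.05 and were lower. The median log2 fold change was 0.67 for AngII+ETH and 0.64 for AngII, against 0.016 and 0.10 over all genes, and 4 members had ranges apart. Fn1, fibronectin, had 245, 461, 434, 1085 and 458 FPKM in AngII+ETH and 120.5, 89.6, 229, 182 and 197 FPKM in Control (log2 fold change 1.61 ± 0.34, adjusted p = 0.21), and 379.7, 431, 488, 459.7 and 279 FPKM in AngII. Thbs1, thrombospondin 1, had 26, 32.9, 30.5, 81.2 and 28.9 FPKM in AngII+ETH and 14.9, 7.14, 12.2, 11.1 and 14.2 FPKM in Control (log2 fold change 1.56 ± 0.39). AngII libraries had 20.9, 56.7, 84, 25.7 and 24.9 FPKM. In both genes AngII+ETH 4 was more than 2 times the next library of its group, and without it the log2 fold changes were 1.32 and 1.27. The following 5 members were named after their values were seen. Postn, periostin of activated fibroblasts, had 395 to 909.6 FPKM in AngII+ETH, against 318 to 544 FPKM in Control (log2 fold change 0.77 ± 0.26). Ccn2, the connective tissue growth factor, had 447 to 1024 FPKM in AngII+ETH, against 263 to 573 FPKM in Control (log2 fold change 0.91 ± 0.33). Ccn5 had 55.3 to 97.3 FPKM in AngII+ETH, against 34.3 to 39.2 FPKM in Control (log2 fold change 0.98 ± 0.26). Comp, the cartilage oligomeric matrix protein, had 15.1 to 48.8 FPKM in AngII+ETH, against 9.73 to 17.4 FPKM in Control (log2 fold change 1.0 ± 0.32). Spp1, osteopontin, had 12, 4.98, 23.7, 49.4 and 23.2 FPKM in AngII+ETH, 4.3, 8.05, 147, 5.19 and 9.34 FPKM in AngII and 2, 0.667, 0.843, 0.997 and 29.9 FPKM in Control, with 1 high Control library (log2 fold change 2.4 ± 0.97). The mean log2 level of the list did not overlap between AngII+ETH and Control: it was 5.50 to 6.37 in AngII+ETH, 5.26 to 6.11 in AngII and 4.61 to 5.14 in Control. The collagen list below, at 4.49 to 5.46 in AngII+ETH and 4.05 to 4.43 in Control, did not overlap either. Nor did the list of matrix proteases and inhibitors, at 4.02 to 4.72 in AngII+ETH and 3.55 to 4.0 in Control, where the ranges nearly meet. In AngII the collagen list was at 4.47 to 5.91 and the protease list at 4.20 to 4.94. These lists are named from 47, which were chosen with earlier results of these data known. Without AngII+ETH 4 the median of matricellular proteins and fibronectin was 0.52, with 9 members higher at p under 0.05.

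Fibrillar and fibril-associated collagens, the tensile fibres of the wall, gave a median of 0.58 for AngII+ETH and 0.75 for AngII. Of the list, 19 of 20 tested members had a higher mean log2 level in AngII+ETH, and 7 had p under 0.05, all higher. Col1a1, the main chain of collagen I, had 328, 311, 422, 715 and 495 FPKM in AngII+ETH and 211, 149, 171, 159 and 237 FPKM in Control (log2 fold change 1.24 ± 0.37). AngII libraries had 401, 435, 1568, 297 and 626 FPKM, where AngII 3 was the high library. Col5a2, a chain of the collagen V that starts fibrils, had 52.9 to 96.1 FPKM in AngII+ETH, against 28.9 to 43.4 FPKM in Control (log2 fold change 0.97 ± 0.29). Col3a1, collagen III, had 371, 272, 518, 777 and 569 FPKM in AngII+ETH and 287, 183, 198, 195 and 288 FPKM in Control, with ranges that overlap (log2 fold change 1.06 ± 0.44). Without AngII+ETH 4 the median of the collagens was 0.39 and 3 had p under 0.05, and without that library and the 3 muscle-rich ones the median was 0.48.

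Basement membrane genes, which form the sheet under endothelium and around smooth muscle cells, had a median of 0.41 for AngII+ETH and 0.34 for AngII, and 5 of 17 tested members had ranges apart, all higher. Of the 6 members with p under 0.05, 4 were collagen IV chains. Col4a3 had 3.72, 3.16, 3.29, 6.33 and 5.07 FPKM in AngII+ETH and 1.31, 0.925, 1.94, 1.74 and 2.54 FPKM in Control (log2 fold change 0.98 ± 0.19, adjusted p = 0.2). Col4a2 had 184, 202, 206, 307 and 212 FPKM in AngII+ETH and 141, 121, 149.7, 129.8 and 147 FPKM in Control (log2 fold change 0.67 ± 0.15), and its neighbour Col4a1, named after its values were seen, had 216, 227, 239, 326 and 235 FPKM in AngII+ETH and 189, 152, 192, 166 and 186 FPKM in Control (log2 fold change 0.48 ± 0.15). The AngII ranges were 3.49 to 5.37, 186 to 310.1 and 225 to 369.9 FPKM for Col4a3, Col4a2 and Col4a1, overlapping those of AngII+ETH. Col4a4, which pairs with Col4a3 in the trimer, had 3.72 to 8.1 FPKM in AngII+ETH, against 0.174 to 3.07 FPKM in Control (log2 fold change 1.1 ± 0.45). Lamb2, a laminin beta chain, had 113 to 168 FPKM in AngII+ETH, against 69.7 to 108 FPKM in Control (log2 fold change 0.46 ± 0.14). Col4a4 and Lamb2 were named after their values were seen. AngII+ETH 4 was highest in all 4 collagen IV chains. Without it the median of the list was 0.13, with 4 members higher and 2 lower at p under 0.05, and the log2 fold changes of Col4a3, Col4a2 and Col4a1 were 0.85, 0.54 and 0.37.

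Elastic fibre genes had a median of 0.37 for AngII+ETH and 0.34 for AngII, with 7 of 21 tested members at p under 0.05, all higher. When AngII+ETH 4 was left out the median was 0.24, and 4 members were higher and 2 lower at p under 0.05. Ltbp2, a microfibril protein related to the binders of latent TGF-beta, had 26.9, 31.4, 24.6, 35 and 14.9 FPKM in AngII+ETH and 8.09, 8.4, 4.18, 15.9 and 5.25 FPKM in Control (log2 fold change 1.63 ± 0.38). Mfap4, a microfibril-associated protein, had 109 to 162 FPKM in AngII+ETH, against 54.7 to 97.4 FPKM in Control (log2 fold change 0.66 ± 0.19). Eln, elastin itself, had 319, 387, 519, 299 and 202 FPKM in AngII+ETH and 203, 99.8, 137, 153 and 323 FPKM in Control (log2 fold change 0.96 ± 0.40), with overlap. Small leucine-rich proteoglycans and versican had a median of 0.31 for AngII+ETH and 0.69 for AngII, and of 11 tested members 2 were higher and 1, Prelp, lower at p under 0.05. The median was 0.14 without AngII+ETH 4, with 1 member higher and 2 lower at p under 0.05, and 0.04 without it and the muscle-rich libraries. The mean log2 level of the list was 5.21 in AngII+ETH, 5.93 in AngII and 5.34 in Control. Fmod, fibromodulin of collagen fibrils, had 51.1 to 99.6 FPKM in AngII+ETH, against 31.9 to 50.9 FPKM in Control (log2 fold change 0.83 ± 0.22). Of the matrix proteases and their inhibitors, 29 of 32 tested members had a higher mean log2 level in AngII+ETH, and 11 had p under 0.05, all higher, for a median of 0.41. Adamts2, which trims procollagen, had 33.5 to 59.1 FPKM in AngII+ETH, against 20.5 to 28.5 FPKM in Control (log2 fold change 0.78 ± 0.21). Among members named after their values were seen, Timp1, a metalloprotease inhibitor, had 21.5 to 72.4 FPKM in AngII+ETH, against 5.96 to 38.9 FPKM in Control (log2 fold change 1.46 ± 0.65), and Mmp3, stromelysin, had 33.1 to 106 FPKM in AngII+ETH, against 23.8 to 52.8 FPKM in Control (log2 fold change 0.83 ± 0.35).

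**Figure D4:**
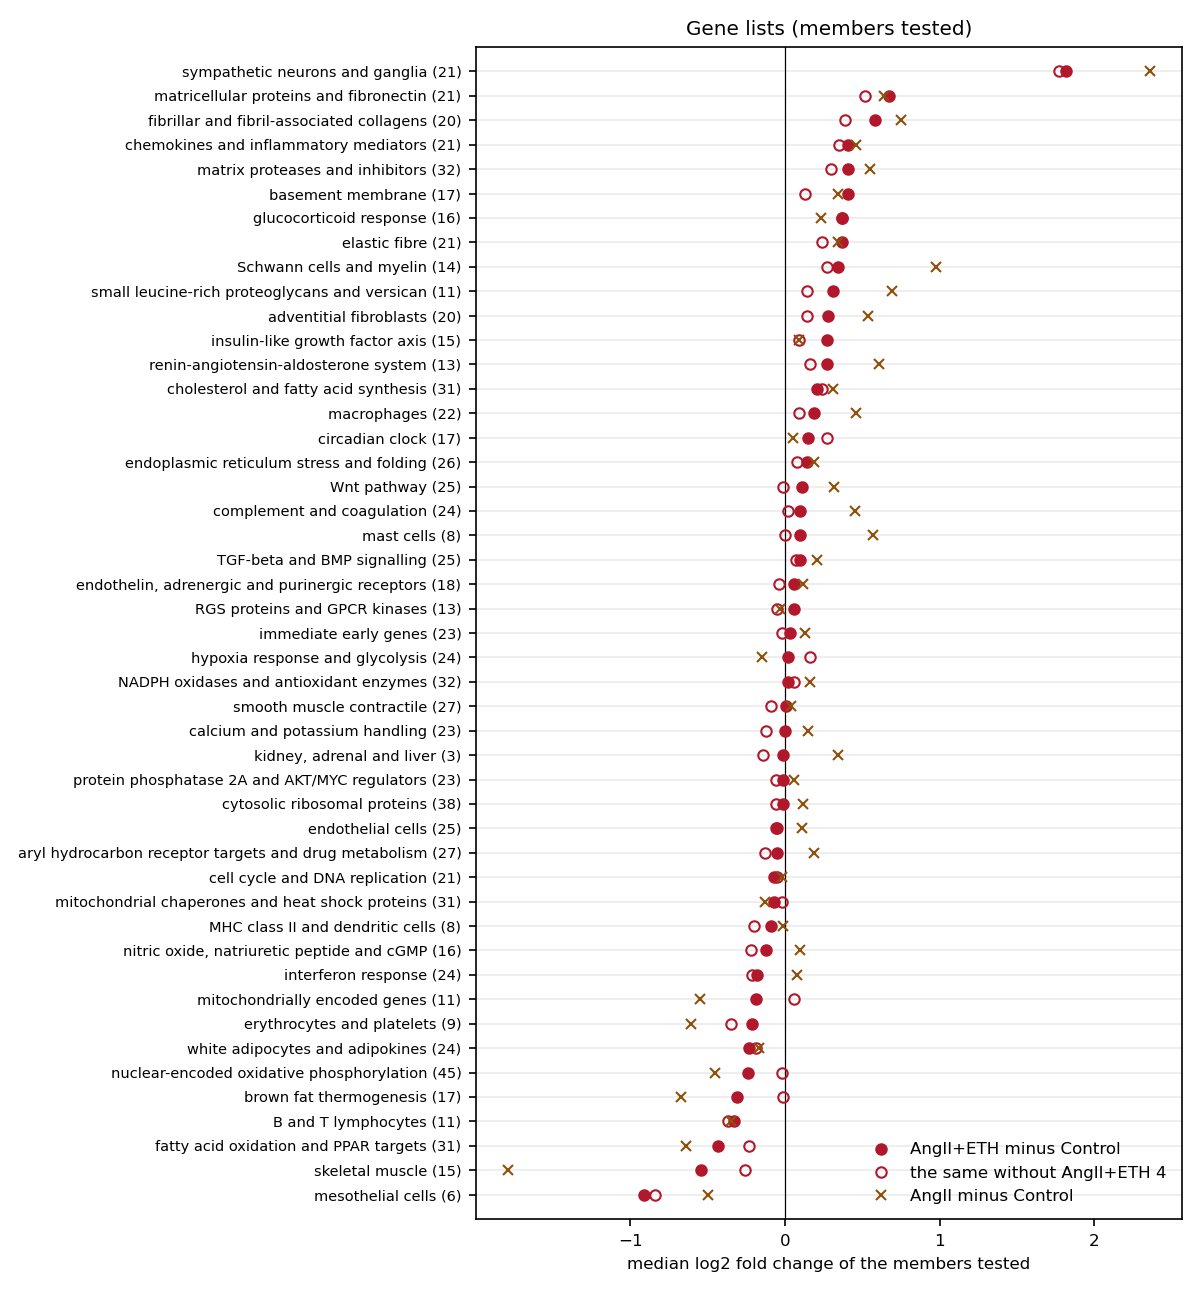
Median log2 fold change (x axis) of the tested members of each of 47 gene lists (rows, members tested in parentheses) for AngII+ETH minus Control (filled), the same without AngII+ETH 4 (open) and AngII minus Control (crosses, which share the Control libraries). Neuron, matricellular and collagen lists lie highest, mesothelial, skeletal muscle and fatty acid oxidation lists lowest, and the medians of brown fat and oxidative phosphorylation lie near 0 without AngII+ETH 4.

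Of the 13 tested genes of the hormone system itself, 2 had p under 0.05. Agtr1a, the type 1 angiotensin receptor of mouse vessels, had 14.2, 2.92, 3.87, 5.16 and 3.9 FPKM in AngII+ETH and 3.86, 3.23, 2.83, 3.7 and 3.19 FPKM in Control (log2 fold change 0.5 ± 0.39), with AngII+ETH 1 alone high, and 9.16, 4.13, 2.82, 7.26 and 16 FPKM in AngII. AngII+ETH 1 and AngII 1 and 5, the libraries with high Agtr1a, were also the 3 highest of all 15 in the neuron list. Ace, the converting enzyme, had 86, 72.2, 91.9, 152 and 81.9 FPKM in AngII+ETH, 105, 147, 124, 98.2 and 103 FPKM in AngII and 84.4, 65.5, 75.8, 63.8 and 83.6 FPKM in Control (log2 fold change 0.33 ± 0.18), with AngII+ETH 4 highest and a log2 fold change of 0.16 without it. Mme, neprilysin, which cleaves angiotensin and natriuretic peptides, had 11.1, 13.3, 13, 8.01 and 12.1 FPKM in AngII+ETH and 15.2, 15.4, 16.6, 19.9 and 15.7 FPKM in Control (log2 fold change -0.5 ± 0.16), with ranges apart, and 7.83 to 14.5 FPKM in AngII. Enpep, the aminopeptidase that degrades angiotensin II, had 12.2 to 26 FPKM in AngII+ETH, against 8.66 to 15 FPKM in Control (log2 fold change 0.58 ± 0.26). Mme and Enpep were the members with p under 0.05, and the list had a median of 0.27 for AngII+ETH and 0.61 for AngII. With AngII+ETH 4 left out the median was 0.16, with 0 members higher and 1 lower at p under 0.05. Of the TGF-beta and BMP list, 4 of 25 were higher at p under 0.05 with a median of 0.10: Gdf10, a secreted family member, had 44.4 to 100.4 FPKM in AngII+ETH, against 24.5 to 36.2 FPKM in Control (log2 fold change 1.0 ± 0.25). Id3, an inhibitor of helix-loop-helix factors and a BMP target, had 84.4 to 127 FPKM in AngII+ETH, against 59.6 to 79 FPKM in Control (log2 fold change 0.55 ± 0.17). Gdf10 and Id3 had ranges apart.

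Vasodilator and receptor lists had medians between -0.12 and 0.06, or -0.22 and -0.04 without AngII+ETH 4. Nitric oxide, natriuretic peptide and cGMP genes had a median of -0.12, with 12 of 16 lower on the mean and 2 lower at p under 0.05 (median -0.22 and 5 lower without AngII+ETH 4). Cav1, the caveolin that binds endothelial nitric oxide synthase, had 28.9, 29.4, 35.6, 35.5 and 29.6 FPKM in AngII+ETH and 37.3, 35.9, 43.6, 51.1 and 42.3 FPKM in Control (log2 fold change -0.39 ± 0.14). Gucy1b1 and Gucy1a1, the subunits of the nitric oxide receptor guanylate cyclase, had log2 fold changes of -0.37 ± 0.16 and -0.32 ± 0.20. Nos3, the endothelial synthase, had 1.19 to 2.99 FPKM in AngII+ETH, against 1.37 to 3.17 FPKM in Control (log2 fold change 0.13 ± 0.19). P2rx1, the ATP-gated channel of arterial smooth muscle, had 19, 31.4, 19.5, 60.9 and 30.5 FPKM in AngII+ETH and 15.7, 12.7, 9.54, 13.2 and 13 FPKM in Control (log2 fold change 1.15 ± 0.33). AngII libraries had 21.9, 16.2, 26.5, 43.9 and 49.2 FPKM. Adra1b, an alpha-1 adrenergic receptor, had 0.675 to 1.54 FPKM in AngII+ETH, against 0.317 to 0.681 FPKM in Control (log2 fold change 0.49 ± 0.18). Ednra, the endothelin receptor of smooth muscle, named after its values were seen, had 4.53 to 9.31 FPKM in AngII+ETH, 5.97 to 11.8 FPKM in AngII and 3.77 to 4.35 FPKM in Control (log2 fold change 0.49 ± 0.21). The receptor list had a median of 0.06 and the RGS and receptor kinase list one of 0.06. Rgs2, which shortens angiotensin and other Gq signals, had 16.8 to 31.4 FPKM in AngII+ETH, against 17.9 to 57.8 FPKM in Control (log2 fold change -0.57 ± 0.26), and Rgs4 of the same family had 30.8 to 43 FPKM in AngII+ETH, 39.2 to 67.8 FPKM in AngII and 22.3 to 39 FPKM in Control (log2 fold change 0.29 ± 0.18).

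Contractile, channel and endothelial lists had medians of 0.01, 0.00 and -0.05, or -0.09, -0.12 and -0.06 without AngII+ETH 4. In the contractile list of smooth muscle 15 of 27 members were higher and 12 lower on the mean, and Acta2 and Myh11 had log2 fold changes of -0.02 ± 0.19 and -0.06 ± 0.18, signs that turned in some alternatives (Acta2 gave 0.18 after quantile normalization). Leaving out AngII+ETH 4 gave -0.16 for Acta2 and -0.21 for Myh11. Tagln, transgelin, had 1239.7 to 2269.8 FPKM in AngII+ETH, against 940.2 to 1558 FPKM in Control (log2 fold change 0.43 ± 0.17). Csrp1, a LIM protein of smooth muscle, had 551 to 1017 FPKM in AngII+ETH, against 389 to 688 FPKM in Control (log2 fold change 0.42 ± 0.17), both with AngII+ETH 4 highest and with log2 fold changes of 0.31 and 0.29 without it. At p under 0.05, 2 of the 27 contractile members were higher and 0 lower, or 0 higher and 2 lower without AngII+ETH 4. Kcna5, a voltage-gated potassium channel of smooth muscle, had 4.54, 4.58, 5.01, 5.17 and 5.02 FPKM in AngII+ETH and 3.02, 3.28, 3.04, 3.76 and 3.5 FPKM in Control (log2 fold change 0.44 ± 0.14), with ranges apart. Itpr2, a calcium release channel, had 4.38 to 7.18 FPKM in AngII+ETH, against 6.78 to 8.7 FPKM in Control (log2 fold change -0.34 ± 0.14). Among endothelial genes, 1 of 25 was lower and 0 higher at p under 0.05 (2 lower and 1 higher without AngII+ETH 4). Of all genes tested, 3.02% were lower and 4.53% higher. The lower endothelial gene with all libraries was Flt1, a receptor of vascular endothelial growth factor. It had 5.14 to 11.1 FPKM in AngII+ETH, against 6.65 to 20.2 FPKM in Control (log2 fold change -0.7 ± 0.31). Gpihbp1, which carries lipoprotein lipase on capillaries, had 35.7 to 56.3 FPKM in AngII+ETH, against 33.4 to 52.1 FPKM in Control (log2 fold change 0.24 ± 0.15). Adventitial fibroblast genes had a median of 0.28 for AngII+ETH and 0.54 for AngII, with 4 of 20 higher at p under 0.05. The median was 0.14 without AngII+ETH 4, with 1 member higher and 1 lower at p under 0.05. Dpep1, a dipeptidase, had 76.9, 66.5, 72.6, 126 and 97.1 FPKM in AngII+ETH and 65.9, 35.8, 52.3, 39.3 and 44.2 FPKM in Control (log2 fold change 0.87 ± 0.20). Pdgfrb, a receptor of platelet-derived growth factor, had 10.4 to 18.5 FPKM in AngII+ETH, against 7.82 to 12.7 FPKM in Control (log2 fold change 0.57 ± 0.23). In bulk tissue, fewer cells of a type and less RNA per cell cannot be told apart, which holds for every list here that marks a cell type.

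Genes of mitochondria and fat were lower on the mean in AngII+ETH, and several of these medians lay nearer to 0 without AngII+ETH 4. Mitochondrially encoded genes took 19.2%, 21.3%, 20.8%, 10.6% and 19.3% of the FPKM in AngII+ETH, 16.5%, 16.0%, 10.4%, 20.9% and 11.3% in AngII, and 18.9%, 21.7%, 19.8%, 21.8% and 19.2% in Control. The means were 18.2% ± 4.35 in AngII+ETH and 20.3% ± 1.40 in Control (SD, n = 5 each), and an exact two-sided permutation test over the 252 splits gave p = 0.405, where the smallest possible p is 0.0079. The median log2 fold change of the 11 tested mitochondrially encoded genes was -0.19, and 0.06 without AngII+ETH 4, and mt-Co1, the core subunit of cytochrome c oxidase, had 15989.8 to 33463 FPKM in AngII+ETH, against 32536 to 41278 FPKM in Control (log2 fold change -0.33 ± 0.23, or -0.12 without AngII+ETH 4). Of the nuclear-encoded genes of oxidative phosphorylation, 43 of 45 were lower on the mean, none at p under 0.05, with a median of -0.24 for AngII+ETH and -0.45 for AngII. Without AngII+ETH 4 the median was -0.02, with 1 member higher at p under 0.05. Sdhc, a subunit of succinate dehydrogenase, had 38.3 to 67.1 FPKM in AngII+ETH, against 58.4 to 88.9 FPKM in Control (log2 fold change -0.36 ± 0.17). Ndufs1, the largest subunit of complex I, had 51.9 to 125 FPKM in AngII+ETH, against 101 to 149 FPKM in Control (log2 fold change -0.48 ± 0.23). Without AngII+ETH 4 the log2 fold changes of Sdhc and Ndufs1 were -0.22 and -0.30. Of the fatty acid oxidation list, 29 of 31 were lower on the mean and 4 at p under 0.05, with a median of -0.43 for AngII+ETH and -0.64 for AngII, and -0.23 with 1 lower at p under 0.05 without AngII+ETH 4. Pdk4, the kinase that shuts off pyruvate oxidation and a PPAR target, had 218, 196, 214, 76.7 and 201 FPKM in AngII+ETH, 175, 78.9, 110.4, 241 and 54.2 FPKM in AngII and 220.1, 455, 247, 429 and 277 FPKM in Control (log2 fold change -0.87 ± 0.40). Ppara, the receptor that drives this program, had 0.327 to 1.76 FPKM in AngII+ETH, against 1.48 to 7.68 FPKM in Control over the shared transcripts (log2 fold change -1.26 ± 0.41), and with 67.2% of its AngII+ETH FPKM in transcripts listed for that group alone its log2 fold change was -0.44 once these were counted. Ppargc1a, the coactivator of mitochondrial genes, had 1.29 to 5.22 FPKM in AngII+ETH, against 2.15 to 13.9 FPKM in Control (log2 fold change -0.97 ± 0.41).

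Fat genes varied widely between libraries of a group. The brown fat list had a median of -0.31 for AngII+ETH and -0.67 for AngII, but -0.01 without AngII+ETH 4, and Ucp1 had 2372, 2052, 2584, 475 and 1841 FPKM in AngII+ETH and 526, 1778, 2206, 2369 and 1444 FPKM in Control (log2 fold change 0.13 ± 0.58, or 0.57 without AngII+ETH 4). Ebf2, a regulator of brown adipocyte identity, had 4.38 to 5.66 FPKM in AngII+ETH, against 5.39 to 10 FPKM in Control (log2 fold change -0.41 ± 0.17). White adipocyte genes had a median of -0.23 for AngII+ETH and -0.19 without AngII+ETH 4. Trarg1, which traffics the glucose transporter Slc2a4, had 20.8, 25.6, 27.9, 20.3 and 11 FPKM in AngII+ETH and 30.7, 33.3, 24.9, 41.4 and 35.4 FPKM in Control (log2 fold change -0.67 ± 0.21). Lpl, lipoprotein lipase, had 199 to 498 FPKM in AngII+ETH, against 373 to 655 FPKM in Control (log2 fold change -0.85 ± 0.31), and Adipoq, adiponectin, named after its values were seen, had 276 to 351 FPKM in AngII+ETH, against 358 to 499 FPKM in Control (log2 fold change -0.39 ± 0.20) with ranges apart. The 4 markers of white fat and 3 of brown fat were at or above 22.0 FPKM in every AngII+ETH and Control library apart from Lep, which lay at 0.0281 to 4.30 FPKM in AngII+ETH and 0.168 to 6.18 FPKM in Control, and how far fat content took part in these values was not tested. Of the cholesterol and fatty acid synthesis list, 24 of 31 tested members had a higher mean log2 level in AngII+ETH with 3 at p under 0.05 and a median of 0.21, among them Msmo1, an oxygenase of sterol synthesis (log2 fold change 0.46 ± 0.20). Slc2a1, the glucose transporter of most cells, had 10 to 16.4 FPKM in AngII+ETH, against 6.08 to 11.6 FPKM in Control (log2 fold change 0.49 ± 0.16). Slc2a4, the insulin-responsive transporter of fat and muscle, named after its values were seen, had 103, 101, 125, 38.6 and 88 FPKM in AngII+ETH and 20.7, 53.1, 72.6, 46.9 and 21.4 FPKM in Control (log2 fold change 1.13 ± 0.47). Heat shock genes had a median of -0.07, or -0.02 without AngII+ETH 4. Hsph1, a cytosolic chaperone, had 30.4 to 59.6 FPKM in AngII+ETH, against 6.68 to 36.4 FPKM in Control (log2 fold change 1.32 ± 0.41). Hspb7, a small heat shock protein of muscle, had 135 to 196 FPKM in AngII+ETH, against 78.8 to 138 FPKM in Control (log2 fold change 0.65 ± 0.21). Hspd1, the mitochondrial chaperonin, had 73.4, 74.7, 73.7, 37.3 and 105 FPKM in AngII+ETH, 52.2, 42.5, 51.4, 56.1 and 45.9 FPKM in AngII and 117, 121, 79.2, 115 and 86.5 FPKM in Control (log2 fold change -0.55 ± 0.22, or -0.34 without AngII+ETH 4).

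**Figure D5:**
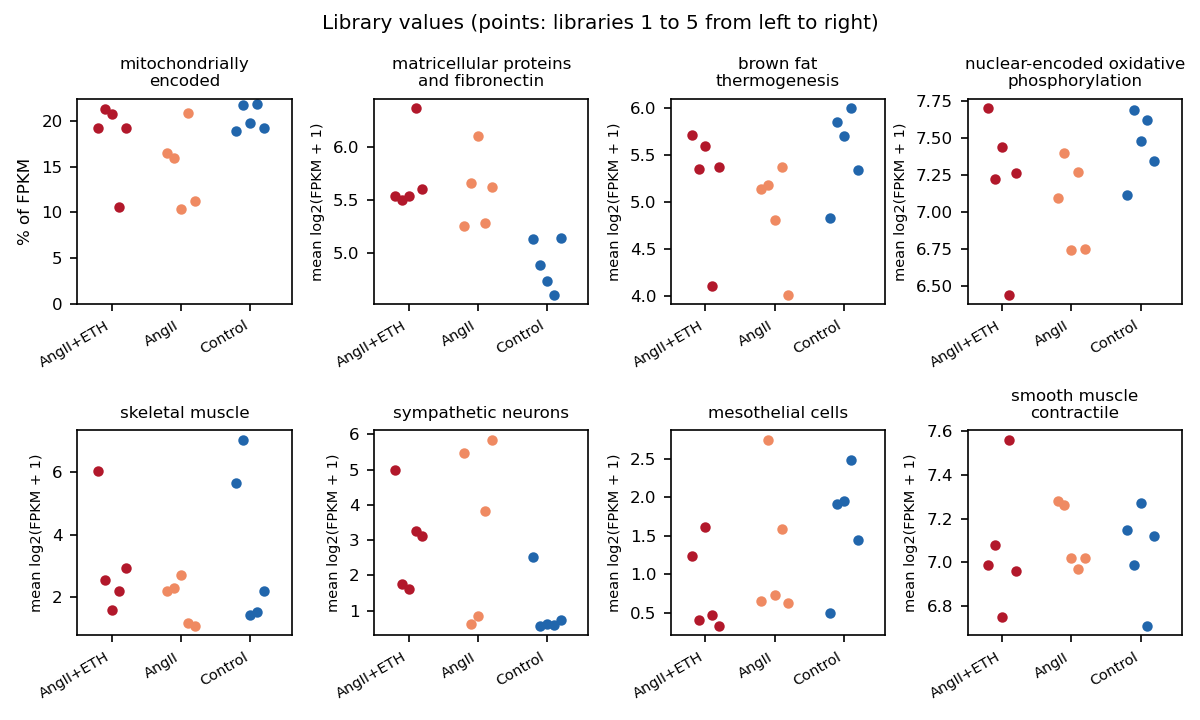
Library values of the share of FPKM in mitochondrially encoded genes (first panel, percent) and of the mean log2(FPKM + 1) of the tested members of 7 gene lists, for AngII+ETH, AngII and Control. AngII+ETH 4 is lowest of its group in the mitochondrial, brown fat and oxidative phosphorylation panels and highest in the matricellular panel, 3 libraries are high in skeletal muscle, and the mesothelial values of the groups overlap.

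Markers of tissues around the vessel differed widely between libraries. Sympathetic neuron genes, from ganglia or nerve fibres along the aorta, were higher on the mean in AngII+ETH for 21 of 21 tested members, with a median of 1.82 for AngII+ETH and 2.36 for AngII and 4 members at p under 0.05. When AngII+ETH 4 was left out, the median was 1.77 and 0 members had p under 0.05. Dbh, which makes noradrenaline, had 89.1, 4.47, 4.91, 22.9 and 23 FPKM in AngII+ETH, 130.3, 0.265, 1.28, 45.6 and 189 FPKM in AngII and 9.79, 0.41, 0.327, 0.368 and 1.03 FPKM in Control (log2 fold change 2.97 ± 1.34). Th, the first enzyme of the same pathway, named after its values were seen, had 74.9, 3.08, 2.71, 14.6 and 17.6 FPKM in AngII+ETH, 103, 0.0906, 0.8, 32 and 145 FPKM in AngII and 7.73, 0.062, 0, 0 and 0.778 FPKM in Control (log2 fold change 2.86 ± 1.34). Tubb3, a neuronal tubulin, had 3.79 to 77.3 FPKM in AngII+ETH, against 0.378 to 6.92 FPKM in Control (log2 fold change 2.66 ± 1.17). All 5 AngII+ETH libraries lay above 4 of 5 Control libraries in Dbh, and within AngII its level spanned 0.265 to 189 FPKM. The mean log2 level of the list was 1.60 to 5.00 in AngII+ETH, 0.63 to 5.85 in AngII and 0.56 to 2.52 in Control. Schwann cell genes had a median of 0.34 with 13 of 14 higher on the mean and none at p under 0.05; Ngfr, the low-affinity nerve growth factor receptor, had 1.65 to 38.9 FPKM in AngII+ETH, against 0.38 to 5.26 FPKM in Control (log2 fold change 2.01 ± 1.04). Cdh19, a Schwann cell cadherin, had 1.72 to 8.54 FPKM in AngII+ETH, against 0.0161 to 4.26 FPKM in Control (log2 fold change 1.09 ± 0.65). How far nerve content took part in the other differences was not tested beyond the fit with muscle and neuron scores as terms, in which no gene passed for AngII+ETH minus Control and Igfbp2 had a log2 fold change of 3.39.

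Skeletal muscle genes were lower on the mean for 14 of 15 tested members, with a median of -0.54 for AngII+ETH and -1.79 for AngII, none at p under 0.05. The median was -0.26 without AngII+ETH 4. Without the 3 muscle-rich libraries (AngII+ETH 1, Control 1 and Control 2), a setting chosen after seeing the data, the median was 1.02. Casq1, the calcium store protein of fast muscle, had 6.45 to 33.8 FPKM in AngII+ETH, against 11.5 to 66 FPKM in Control (log2 fold change -0.63 ± 0.53). Mesothelial genes, from the serous lining, were lower on the mean for 6 of 6 tested members, with a median of -0.91 for AngII+ETH and -0.50 for AngII and 2 members at p under 0.05, against 0 members without AngII+ETH 4. Upk3b, a mesothelial uroplakin named after its values were seen, had 1.93, 0.0146, 3.4, 0.0963 and 0.102 FPKM in AngII+ETH and 0.0152, 5.21, 5.11, 7.33 and 3.65 FPKM in Control (log2 fold change -1.31 ± 0.76). Krt19, a keratin, had 0 to 0.86 FPKM in AngII+ETH, against 0.332 to 4.11 FPKM in Control (log2 fold change -0.91 ± 0.39). Lrrn4 had 0.141 to 1.81 FPKM in AngII+ETH, against 0.635 to 5.24 FPKM in Control (log2 fold change -0.91 ± 0.40). The lowest Upk3b values, 0.0146 FPKM in AngII+ETH 2 and 0.0152 FPKM in Control 1, lie below the 0.0187 to 0.02 FPKM that 3 reads in a transcript of 2 kb give, a floor for counting error only. Erythrocyte and platelet genes had a median of -0.21, or -0.35 without AngII+ETH 4, and Hba-a2, an alpha globin that is a near copy of Hba-a1 and so uncertain, had 901, 211, 298, 712 and 281 FPKM in AngII+ETH, 2696, 529, 1342, 561 and 499.9 FPKM in AngII and 2321, 2759, 3648, 1593 and 482 FPKM in Control (log2 fold change -2.12 ± 0.61). Hba-a1 had 1480 to 4500 FPKM in AngII+ETH and 1500 to 4480 FPKM in Control, so the lower level of Hba-a2 was not shared by its near copy. Hbb-bs, a beta globin, had 2190 to 5560 FPKM in AngII+ETH and 1700 to 8870 FPKM in Control. Of the kidney, adrenal and liver list 3 members were tested, with a median of -0.01, or -0.14 without AngII+ETH 4. Slc34a1, a kidney phosphate transporter, lay at 0 to 2.25 FPKM in AngII+ETH and 0 to 1.98 FPKM in Control, and Kap, a kidney androgen-regulated protein, reached 26.8 FPKM in AngII+ETH and 22.7 FPKM in Control.

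Immune lists were mixed. Macrophage genes had a median of 0.19 for AngII+ETH and 0.46 for AngII, with 3 of 22 higher at p under 0.05. The median was 0.09 with 1 member higher at p under 0.05 when AngII+ETH 4 was left out, and 0.00 when the muscle-rich libraries were left out too. Lgals3, galectin 3, had 33.6, 24.3, 46, 36.4 and 19.8 FPKM in AngII+ETH and 14.6, 13.2, 13.2, 13.2 and 17.2 FPKM in Control (log2 fold change 1.06 ± 0.32), with ranges apart. Gpnmb, a lysosomal glycoprotein of foam cells, had 10, 7.35, 7.76, 36.4 and 31.2 FPKM in AngII+ETH and 10.6, 5.32, 5.26, 5.08 and 6.72 FPKM in Control (log2 fold change 1.1 ± 0.45). Lymphocyte genes had a median of -0.33 with 8 of 11 lower on the mean and none at p under 0.05, such as Cd79b, a chain of the B cell receptor, at 0 to 4.71 FPKM in AngII+ETH, against 0.644 to 8.75 FPKM in Control (log2 fold change -1.04 ± 0.54), and Cd2 at 0.439 to 1.79 FPKM in AngII+ETH, against 0.721 to 3.25 FPKM in Control (log2 fold change -0.53 ± 0.28). Interferon genes had a median of -0.18 for AngII+ETH and 0.08 for AngII, with 17 of 24 tested members lower on the mean. At p under 0.05, 1 member was higher and 2 were lower, or 0 and 1 without AngII+ETH 4. The lower ones with all libraries were the guanylate-binding proteins Gbp2 and Gbp3, with log2 fold changes of -1.31 ± 0.52 and -1.01 ± 0.41. Chemokines and inflammatory mediators had a median of 0.41, with 1 of 21 higher at p under 0.05, against 4.53% of all genes tested. That member, Nfkbia, the NF-kappaB inhibitor and target, had 28 to 42 FPKM in AngII+ETH, against 20 to 34.5 FPKM in Control (log2 fold change 0.42 ± 0.15). Cxcl14 had 2.68 to 12.5 FPKM in AngII+ETH, against 1.94 to 3.29 FPKM in Control (log2 fold change 1.05 ± 0.54). Ccl2, the monocyte chemokine, had 0.216, 0.982, 2.98, 1.62 and 1.71 FPKM in AngII+ETH and 0.214, 0.976, 0.866, 1.38 and 0.573 FPKM in Control (log2 fold change 0.4 ± 0.53). Antigen presentation genes had a median of -0.09, or -0.20 without AngII+ETH 4, with 7 of 8 tested members lower on the mean and none at p under 0.05. H2-Ob had a log2 fold change of -0.28 ± 0.36, and Cd209a, the 1 member higher on the mean, one of 0.35 ± 0.36, or 0.22 without AngII+ETH 4. Mast cell genes had a median of 0.10, or 0.00 without AngII+ETH 4, where Fcer1a, a chain of the IgE receptor, had 0.568 to 2.29 FPKM in AngII+ETH, against 0.303 to 0.864 FPKM in Control (log2 fold change 0.59 ± 0.24). Tpsb2, a tryptase, had 0.711 to 16.1 FPKM in AngII+ETH, against 0.289 to 1.85 FPKM in Control (log2 fold change 1.08 ± 0.55). Complement genes had a median of 0.10 for AngII+ETH (0.02 without AngII+ETH 4) and 0.45 for AngII. Colec11, a lectin of the pathway, had 2.49 to 6.95 FPKM in AngII+ETH, against 0 to 2.99 FPKM in Control (log2 fold change 0.91 ± 0.34), C1s1 had a log2 fold change of 0.57 ± 0.29, and Masp1, the lectin pathway protease, had 1.17, 0.649, 0.985, 1.77 and 0.784 FPKM in AngII+ETH, 1.41, 2.31, 1.71, 2.22 and 2.91 FPKM in AngII and 0.793, 0.699, 0.585, 0.904 and 0.692 FPKM in Control (log2 fold change 0.23 ± 0.16, or 0.12 without AngII+ETH 4). For Masp1 the AngII+ETH range overlapped that of Control, and 4 of its 5 libraries lay below every AngII library, with an AngII+ETH minus AngII difference of -0.59 (adjusted p = 0.86).

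Circadian genes were higher or lower in AngII+ETH depending on the gene. The clock turns over a daily cycle, and the time of day at which tissue was taken is not given in the labels. Nr1d1, the repressor REV-ERB alpha, had 20.2, 99.5, 78, 87.5 and 80.5 FPKM in AngII+ETH, 17.1, 22.4, 34, 9.25 and 18.7 FPKM in AngII and 49.8, 36, 21.2, 85 and 50.8 FPKM in Control (log2 fold change 0.54 ± 0.45). AngII+ETH 1 was low, and the other 4 AngII+ETH libraries were at or above 78.0 FPKM, against 34.0 FPKM or less in every AngII library. The AngII+ETH minus AngII difference was 1.73 (adjusted p = 0.86) and the AngII minus Control difference -1.19. Dbp, a clock output factor, had 24.9, 47.5, 38.1, 45.1 and 61.5 FPKM in AngII+ETH, 11.6, 14.7, 37.1, 21.1 and 15.7 FPKM in AngII and 17.5, 27.6, 8.55, 27.7 and 40.6 FPKM in Control (log2 fold change 0.91 ± 0.38). Per1, a core period gene, had 2.18 to 9.77 FPKM in AngII+ETH, against 0 to 3.99 FPKM in Control over the shared transcripts (log2 fold change 1.2 ± 0.51), and 0.48 once transcripts not listed for AngII+ETH were counted, which hold 37.3% of its Control FPKM. Hlf, related to Dbp and named after its values were seen, had 0.214 to 5.18 FPKM in AngII+ETH, against 0.00456 to 2.01 FPKM in Control over the shared transcripts (log2 fold change 1.02 ± 0.44), and 0.16 once transcripts not listed for AngII+ETH were counted, which hold 65.3% of its Control FPKM. Nfil3, a repressor of the targets of Dbp, also named after its values were seen, had 1.32 to 7.36 FPKM in AngII+ETH, against 4.18 to 19.3 FPKM in Control (log2 fold change -0.71 ± 0.38). Of 17 tested clock genes, 4 were higher and 2 lower at p under 0.05, with a median of 0.15, or 2 and 3 with a median of 0.27 without AngII+ETH 4.

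Lists of immediate early, endoplasmic reticulum stress, glucocorticoid, redox, drug metabolism and phosphatase genes had medians between -0.05 and 0.37, or -0.13 and 0.37 without AngII+ETH 4. Among immediate early genes (median 0.03, or -0.02 without AngII+ETH 4), Maff, a small Maf factor, had 9.51, 17.3, 9.57, 12.2 and 10.5 FPKM in AngII+ETH and 4.23, 6.31, 1.59, 4 and 6.16 FPKM in Control (log2 fold change 1.29 ± 0.29), with ranges apart, and 5.03 to 13 FPKM in AngII, while Jun, a subunit of AP-1, had 16.7, 16.5, 17.3, 23.8 and 15.6 FPKM in AngII+ETH and 21.6, 26, 28.5, 25.3 and 32.1 FPKM in Control (log2 fold change -0.55 ± 0.14). Endoplasmic reticulum stress genes had a median of 0.14 (0.08 without AngII+ETH 4) with 23 of 26 higher on the mean. Their median was 0.01 when AngII+ETH 4 and the muscle-rich libraries were left out. Against 4.53% of all genes tested, 2 of these 26 were higher at p under 0.05. Of these 2, Atf4, the main factor of the integrated stress response, had 69.4 to 88.5 FPKM in AngII+ETH, against 45.5 to 74.4 FPKM in Control (log2 fold change 0.34 ± 0.15). The other was Manf, a secreted protein of the same compartment, at 31.4 to 45.8 FPKM in AngII+ETH, against 23.1 to 32.1 FPKM in Control (log2 fold change 0.44 ± 0.20). Glucocorticoid-responsive genes had a median of 0.37, and 0.06 without the muscle-rich libraries. Of the redox list (median 0.02, or 0.06 without AngII+ETH 4), Sod3, the extracellular superoxide dismutase, had 151 to 246 FPKM in AngII+ETH, against 108 to 158 FPKM in Control (log2 fold change 0.55 ± 0.17), and Cat, catalase, had 155 to 193 FPKM in AngII+ETH, against 201 to 287 FPKM in Control (log2 fold change -0.4 ± 0.17). Among drug metabolism genes (median -0.05, or -0.13 without AngII+ETH 4), Ephx1, an epoxide hydrolase, had 65.2 to 103 FPKM in AngII+ETH, against 16.9 to 66.7 FPKM in Control (log2 fold change 0.79 ± 0.33). Abcb1a, an efflux pump, had 0.338 to 4 FPKM in AngII+ETH, against 0.0592 to 1.25 FPKM in Control (log2 fold change 0.76 ± 0.33). Cyp1b1, a target of the aryl hydrocarbon receptor, had 29.6, 26, 32.7, 62.1 and 43.4 FPKM in AngII+ETH and 35.2, 21, 32.6, 21.8 and 25.1 FPKM in Control (log2 fold change 0.46 ± 0.24, or 0.27 without AngII+ETH 4). Genes of protein phosphatase 2A and of AKT and MYC, the pathway tied to the compound in cultured cells, had a median of -0.01, with 0 of 23 higher and 2 lower at p under 0.05, or -0.06 with 1 higher and 2 lower without AngII+ETH 4. The lower ones with all libraries were Foxo1, a factor restrained by AKT, at 7.82 to 10.4 FPKM in AngII+ETH, against 9.77 to 13.2 FPKM in Control (log2 fold change -0.3 ± 0.11), and Mtor at 5.07 to 19.9 FPKM in AngII+ETH, against 17 to 28.1 FPKM in Control (log2 fold change -0.86 ± 0.38). Ppp2ca, the catalytic subunit of the phosphatase, named after its values were seen, had 33.7 to 37.9 FPKM in AngII+ETH, against 31.9 to 34.5 FPKM in Control (log2 fold change 0.11 ± 0.06), and Cip2a was not analysed here.

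Of the remaining lists, those of cell division, Wnt, hypoxia and ribosomes had medians between -0.07 and 0.11, or -0.06 and 0.16 without AngII+ETH 4. Cell cycle genes had a median of -0.07 with 1 of 21 lower at p under 0.05, against 3.02% of all genes tested, or 3 without AngII+ETH 4. Cdkn2c, an inhibitor of cyclin-dependent kinases, had 30.6, 28.5, 23.4, 26.9 and 29 FPKM in AngII+ETH and 38.5, 33.8, 38.2, 36.7 and 34 FPKM in Control (log2 fold change -0.38 ± 0.12), with ranges apart. Mcm4, a replication helicase subunit, had 2.87 to 4.83 FPKM in AngII+ETH, against 3.82 to 5.39 FPKM in Control (log2 fold change -0.28 ± 0.15). Wnt genes had a median of 0.11 with 4 of 25 higher at p under 0.05, against a median of -0.01 with 1 higher without AngII+ETH 4. Rspo3, a Wnt amplifier, had 0.886 to 2.42 FPKM in AngII+ETH, against 0.534 to 0.867 FPKM in Control (log2 fold change 0.56 ± 0.16). Fzd1, a Wnt receptor, had 26.4 to 51.3 FPKM in AngII+ETH, against 20.8 to 26.1 FPKM in Control (log2 fold change 0.46 ± 0.18, or 0.29 without AngII+ETH 4). Rspo3 and Fzd1 had ranges apart. Hypoxia and glycolysis genes had a median of 0.02, or 0.16 without AngII+ETH 4, with Egln3, an oxygen sensor and hypoxia target, at 4.38 to 9.1 FPKM in AngII+ETH, against 6.3 to 16.9 FPKM in Control (log2 fold change -0.44 ± 0.24). Ribosomal protein genes, of which 18 of 38 were higher on the mean and none had p under 0.05, had a median of -0.01 (-0.06 without AngII+ETH 4), with Rpl11 at 0.21 ± 0.13 and Rps15 at -0.31 ± 0.25.

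Some transcripts were listed for 1 group alone and do not enter the sums above. Of the annotated transcripts, 28459 were listed for both groups, 1140 for AngII+ETH alone and 1390 for Control alone. Among these, 186 of the AngII+ETH and 277 of the Control transcripts belonged to genes with no transcript listed for both, which were not tested. In all, 40491 transcripts were listed for both groups, and those outside the annotation did not enter the sums either. A transcript listed for AngII+ETH alone had a mean of at least 0.5 FPKM there in all 1140 cases. Of the transcripts listed for Control alone, all 1390 had a mean of at least 0.5 FPKM in Control and 0 had one in AngII. A listing cut at a group mean of 0.5 FPKM would give these counts by itself. They are therefore no sign of transcripts lost under infusion. The authors' rule for listing is not given in the sources used here. A mean of at least 5 FPKM was reached by 7 transcripts listed for AngII+ETH alone and by 13 listed for Control alone. The highest for AngII+ETH was one of Myl12a, a regulatory light chain of myosin, at 0.128 to 89.6 FPKM with a mean of 36.3 FPKM, and the next was one of Idh3g, a subunit of isocitrate dehydrogenase, which was under 0.5 FPKM in 4 of 5 libraries. For Control they were one of Myh1, the fast skeletal myosin, at 0 to 337 FPKM with 3 libraries under 0.5 FPKM, and the Map6 transcript described above. Since Myh1 had 98.6% of its Control FPKM outside the shared list, its log2 fold change was 1.46 ± 0.75 over the shared transcript and -1.09 with every listed transcript counted.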

How the data were processed

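Total RNA from abdominal aorta was depleted of ribosomal RNA and made into libraries with a NEBNext Ultra RNA kit, which does not mark strand, per the labels' protocols. The authors deposited FPKM per transcript, a unit read from the values, with 1 list of transcripts per group. The submitters' processing notes name mm10 and limma; the aligner and quantifier are not given in the sources used here.

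Ensembl transcripts (33638 of 33677 matched to GENCODE M21) listed for both AngII+ETH and Control were summed per gene, giving 14494 genes. Depth, recovered from low values that were whole multiples of 1 read (99.1% to 99.6% within 0.1 read), was 74.9 to 80 M (megareads) per library. A gene entered if 5 or more of 15 libraries had 1 FPKM or more. These genes were fitted with limma 3.58.1 (R 4.3.3; log2 of FPKM + 1, pseudocount 1, empirical Bayes with trend and robust settings, 12 residual degrees of freedom) with AngII+ETH, AngII and Control in 1 fit. Adjusted p-values are Benjamini-Hochberg over all 12589 genes, with a threshold of 0.05. The fit was tested on simulated data. Tables and plots used Python 3.11.15 with pandas 2.3.3, numpy 2.4.6 and matplotlib 3.10.9.

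Named genes were up to 12 genes per direction past the threshold, filled to 10 by smallest p among genes with ranges apart and a mean of at least 5 FPKM in the higher group, 18 fixed genes, and the 2 members with the smallest p in each of 47 lists. A further 20 genes were chosen after their values were seen. Some genes that these rules gave are not reported here. The lists hold 1108 members, of which 1030 were listed and 965 tested. The groups, genes and lists were chosen with earlier results of these data known. Alternatives covered the libraries fitted, pseudocount, filter, normalization, transcript handling, variance model, tissue scores and each library left out.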

Additional observations from a re-analysis of the deposited data

Results flagged for a closer look

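Of 172 groups of 5 values examined, 15 had a library whose gap to the nearest of the others exceeded 0.71 of the range of its group, the critical value of Dixon's test, and chance alone flags about 1 group in 20. AngII+ETH 4 accounted for 9 of the 15. It had 132 FPKM of Igfbp2 (other AngII+ETH libraries 64.5 to 79.6 FPKM), 152 FPKM of Ace (others 72.2 to 91.9 FPKM) and 1085 FPKM of Fn1 (others 245 to 461 FPKM). Its mean log2 level was 6.37 for matricellular proteins and fibronectin (others 5.50 to 5.61), 6.03 for small leucine-rich proteoglycans and versican (others 4.92 to 5.14) and 5.05 for endoplasmic reticulum stress and folding genes (others 4.84 to 4.87). It was low in mitochondrially encoded genes, at a mean log2 level of 10.6 (others 11.5 to 11.6) and 10.6% of FPKM (others 19.2% to 21.3%), and in brown fat genes, at 4.11 (others 5.35 to 5.72).

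AngII+ETH 1 had 14.2 FPKM of Agtr1a (others 2.92 to 5.16 FPKM) and 20.2 FPKM of Nr1d1 (others 78.0 to 99.5 FPKM). In Control, library 2 had 11.3 FPKM of Map6 (others 0.482 to 1.33 FPKM), library 5 had 6.69 FPKM of Rab2b (others 3.77 to 4.60 FPKM), and library 1 had 7.94 FPKM of Olfml2a (others 5.57 to 6.06 FPKM) and a mean log2 level of 2.52 for sympathetic neuron genes (others 0.558 to 0.723). What set these libraries apart was not tested.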

How the results depend on the processing

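Against the 0 calls in either direction, AngII+ETH minus Control gave 3 higher and 1 lower gene with these 10 libraries alone, 4 higher with array weights, 2 higher and 2 lower with unlisted transcripts at 0, and 1 higher (Igfbp2) with at least 5 FPKM in 5 libraries, median centring, pseudocount 0.1, quantile normalization or rescaling without mitochondrial genes. Leaving out 1 library gave 0 to 3 higher and 0 to 1 lower. Settings chosen after seeing the data gave 1 higher without the muscle-rich libraries, and 1 higher and 1 lower without these and AngII+ETH 4. AngII minus Control gave 6 higher and 2 lower with muscle and neuron scores as terms, 1 higher in both settings without muscle-rich libraries, and 0 to 14 higher and 0 to 3 lower with 1 library left out. AngII+ETH minus AngII gave 0 to 1 in each direction with 1 library left out and 2 lower without the muscle-rich libraries and AngII+ETH 4. Without AngII+ETH 4, unadjusted p under 0.05 was reached by 386 higher and 448 lower genes, against 570 and 380 with it.

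Of 4317 gene values under 31 alternatives, 25 turned sign, in 9 genes, and 25 newly passed the threshold, in 8 genes; 18 of 1409 list medians moved by more than the spread. Acta2 gave 0.18 after quantile normalization, 0 with tissue scores and -0.16 to 0.1 over the fits without 1 library. Agtr1a gave -0.14 and Cdh19 -0.09 with tissue scores. Map6 gave -0.25 and Myh1 -1.09 with unlisted transcripts at 0. Myh11 gave -0.21 to 0.04 over the fits without 1 library and 0.02 without the muscle-rich libraries. Slc34a1 gave -0.02 with array weights and -0.19 to 0.33 over the fits without 1 library. Ucp1 gave -0.24 to 0.57 over such fits and -0.42 without the muscle-rich libraries, and mt-Nd5 gave 0 without these and AngII+ETH 4. The causes were not tested. No paired analysis was possible because the labels carry no replicate numbers.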
